A study of Mus musculus with 12 samples.

Results

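Fibrotic mouse skin at 6 weeks was compared with normal mouse skin across all genes: 3 libraries, F_6W_1 to F_6W_3, against 3 libraries, N1 to N3, out of the 12 libraries of the study. Both groups came from C3H/HeJ mice, and the skin was dissected as whole tissue, so that each library mixes epidermis, dermis, hair follicles, fat and any attached muscle. The 6 other libraries came from the 20-week time point, 3 of fibrotic skin and 3 of fibrotic skin transplanted with CD36highCD90+ fibroblasts. Messenger RNA was sequenced, and each gene has an FPKM value, a fragment number scaled to transcript length and library size. Of the 23359 genes in the table, 13337 had at least 1 FPKM in at least 3 of these 6 libraries and were compared. The labels give no treatment, agent, genotype or age for either group, no time point for normal skin, and no statement of how fibrosis was brought about or whether the libraries of a group are separate animals. P-values therefore measure the spread between these samples, and what else separated the groups apart from the label cannot be told apart from fibrosis.

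Skin is covered by an epidermis in which keratinocytes divide in the basal layer, move upwards and end as cornified cells, flat sacks of keratin inside an envelope of cross-linked proteins and lipids. After injury or chronic irritation keratinocytes switch to another set of keratins and envelope proteins and release cytokines. In fibrosis, fibroblasts of the dermis, some of them contractile myofibroblasts that respond to transforming growth factor beta (TGF-beta), lay down collagen and other matrix proteins while proteases and their inhibitors remodel them.

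The markers of the main skin cell types were present in all 6 libraries: Krt5, of basal keratinocytes, stood at 2279 FPKM or more, Col1a2, of fibroblasts, at 60.2 or more, Pecam1, of endothelium, at 17.8 or more, and Ptprc, of leukocytes, at 6.11 or more. The tissue content was not even. The summed FPKM of 18 skeletal muscle fibre genes was 5387, 216 and 8692 in normal replicates 1, 2 and 3 and 1638, 90.5 and 2812 at 6 weeks. Replicate 2 of each group thus held the least muscle RNA. Haemoglobin and other erythrocyte genes summed to 2020 FPKM in normal replicate 3 and to 46.8 to 79.6 FPKM in the 5 other libraries. Stefin genes took 0.0109% to 0.0209% of the FPKM of normal libraries and 4.60% to 6.94% of those at 6 weeks, and epidermal keratins 2.29% to 3.1% and 6.49% to 7.74%. The total without short RNAs was 476130 to 510700 FPKM in normal skin and 616050 to 712250 FPKM at 6 weeks, while the median of the compared genes was 10.5 to 10.8 and 10.2 to 10.3 FPKM. Depth per library cannot be read from FPKM and is unknown here. Correlations between libraries on the log2 scale were 0.934 to 0.962 within normal skin, 0.959 to 0.975 within 6-week skin and 0.805 to 0.892 between the groups.

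At 6 weeks 6079 of the 13337 genes were called at an adjusted p under 0.05 (45.6%), 2803 higher (21%) and 3276 lower (24.6%). The test was limma on log2(FPKM + 1) in a fit of these 6 libraries, with Benjamini-Hochberg adjustment over all genes compared. At least 2-fold changes numbered 911 upward (6.83%) and 761 downward (5.71%), and the extreme changes were upward: 65 genes were at least 16-fold higher and 6 at least 16-fold lower. The groups did not overlap for 58.5% of genes, and the median log2 fold change of all genes was -0.05. The split of the calls depended on scaling: median-of-ratios scaling gave 3175 higher and 2868 lower genes, and equal totals without short RNAs, keratin, stefin, cornified, hair and muscle genes gave 1830 and 4974 with the median of all genes at -0.25. A fit of all 12 libraries called 5368. Leaving out 1 library left 4246 (without 6-week replicate 2) to 5501 calls (without normal replicate 3). A list member counts as measured where it passed the filter. A gene under 1 FPKM in a whole group passed only through the other group, where it was higher. A list of genes is read below against these percentages. The lists were chosen with earlier results of these data known, so this is a description and no test. In whole tissue, a lower level can mean fewer cells of a type or less RNA per cell, and these cannot be told apart.

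The largest rises included those of genes known from keratinocytes of injured or inflamed epidermis. All 10 members of the stefin A cluster rose, where 21% of all genes did (median log2 fold change 7.38). Stefins are inhibitors of cysteine proteases such as cathepsins. Which cells made the stefin RNA cannot be read from whole tissue. Their summed FPKM was 51.9, 98.8 and 106 in normal skin and 28325, 49455 and 34768 at 6 weeks. The single members are uncertain, since up to 35.6% of the stretches of 50 bases in a stefin transcript were identical in another stefin transcript. Stfa3, which shared 0%, stood at 11.5, 25.6 and 25.4 FPKM in normal skin and 6392, 12049 and 10814 FPKM at 6 weeks, a log2 fold change of 8.83 ± 0.37 SE with an adjusted p = 0.000101. All 3 libraries at 6 weeks were far above all 3 of normal skin.

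Of the 4 keratins of wounded epidermis 3 rose. Krt6b measured 1.02, 2.05 and 3.11 FPKM in normal skin and 2610.1, 4376 and 1808 FPKM at 6 weeks, a log2 fold change of 9.87 ± 0.38 SE with an adjusted p = 0.000101. Krt16, its partner in keratin filaments, measured 13.8, 22.1 and 23.3 FPKM in normal skin and 4299, 5276 and 2479.6 FPKM at 6 weeks. Krt6a measured 67.2, 71 and 87.1 FPKM in normal skin and 2621, 3752 and 1131 FPKM at 6 weeks. In all 3 genes the groups were far apart, and 6-week replicate 3 was the lowest of its group. Krt17, another keratin of this set that is also made in hair follicles, measured 514, 497 and 244 FPKM in normal skin and 545, 461 and 242 FPKM at 6 weeks, a difference of -0.01 with a 95% interval of -0.98 to 0.96. Of the 9 interfollicular keratins 6 rose and 3 fell. Krt14, of the basal layer, had a log2 fold change of 2.05 and Krt1, of the layers above, of 3.6. The 3 lower ones were Krt77 (2441, 3322 and 2228 FPKM in normal skin and 215, 173 and 585 FPKM at 6 weeks), Krt80 (-1.78) and Krt23 (-1.41). Krt77 was thus low in all 3 libraries in which Krt1 was high, and the groups overlapped for neither.

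**Figure D1:**
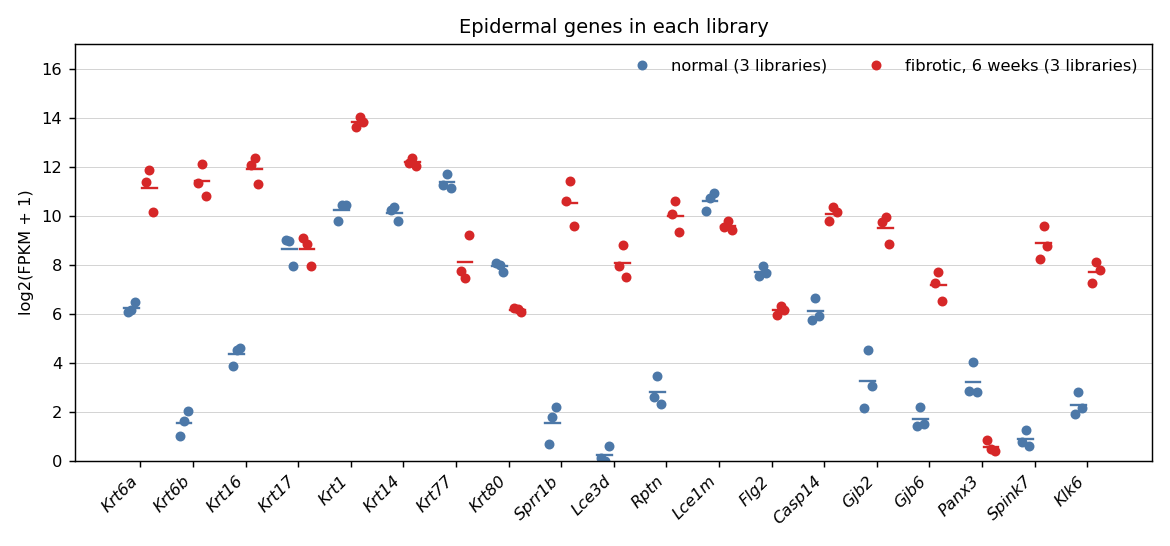
Level of 19 epidermal genes in each library as log2(FPKM + 1) (y axis), with 3 normal libraries in blue and 3 libraries of 6-week fibrotic skin in red; short bars are group means. Krt6b, Sprr1b, Lce3d, Rptn and Spink7 are low in normal skin and far higher at 6 weeks, Krt17 is level, and Krt77, Krt80, Lce1m, Flg2 and Panx3 are lower at 6 weeks.

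The cornified envelope is built from small proline-rich proteins, late cornified envelope proteins and larger proteins such as repetin and filaggrin. Of 13 measured small proline-rich genes 12 rose, by up to 8.97 for Sprr1b (0.608, 2.49 and 3.59 FPKM in normal skin and 1568, 2729 and 759 FPKM at 6 weeks). The other member, Sprr4, measured 43.6, 101 and 20.7 FPKM in normal skin and 29.5, 20.8 and 31.4 FPKM at 6 weeks and was not called (-0.73), but passed without normal replicate 3 (-1.27, adjusted p = 0.0454). Of 26 late envelope and related genes 24 rose. Lce3b, Lce3c, Lce3d and Lce3e had log2 fold changes of 7.0, 7.05, 7.84 and 7.67, against 3.48 for Lce1h and 2.75 for Lce1i. Lce3a and Lce3f were listed at 0 in all normal libraries and get no fold. The members that fell were Lce1m (1164, 1677 and 1917 FPKM in normal skin and 746, 879 and 684 FPKM at 6 weeks, a log2 fold change of -1.02 ± 0.22 SE with an adjusted p = 0.0107) and the filaggrin relative Flg2 (186, 246 and 203 FPKM in normal skin and 61.1, 78.5 and 69.7 FPKM at 6 weeks, a log2 fold change of -1.58 ± 0.14 SE with an adjusted p = 0.00064). S100a8 and S100a9, which pair to form calprotectin, a protein of neutrophils and stressed keratinocytes, rose by 7.07 and 6.17.

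The upstream sequences of a few raised genes are shown. AP-1, the Fos and Jun family of transcription factors, is known to act on epidermal and metalloproteinase genes through the site TGANTCA. The site is its own reverse complement. The genes were picked, and only upstream sequences that hold the site are printed, so its presence in them is no result. Sequences and coordinates are from RefSeq on GRCm38.p6, the assembly that mm10 is based on. Each run is 5′ to 3′ on the gene's strand and ends at the base before the gene's start, with the site in capitals. Sprr1b lies at chr3:92438780-92438929 on the minus strand, Sprr2d at chr3:92338930-92339139 on the plus strand, Rptn at chr3:93393579-93393698 on the plus strand, Mmp10 at chr9:7502252-7502341 on the plus strand, Mmp12 at chr9:7347284-7347373 on the plus strand and Mmp13 at chr9:7272424-7272513 on the plus strand.
Sprr1b: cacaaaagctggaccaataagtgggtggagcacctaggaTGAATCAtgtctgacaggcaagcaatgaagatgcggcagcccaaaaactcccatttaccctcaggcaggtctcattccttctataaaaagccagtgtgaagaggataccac
Sprr2d: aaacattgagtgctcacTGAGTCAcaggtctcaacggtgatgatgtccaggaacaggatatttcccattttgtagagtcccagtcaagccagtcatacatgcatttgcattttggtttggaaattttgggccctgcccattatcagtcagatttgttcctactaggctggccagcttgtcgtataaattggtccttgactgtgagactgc
Rptn: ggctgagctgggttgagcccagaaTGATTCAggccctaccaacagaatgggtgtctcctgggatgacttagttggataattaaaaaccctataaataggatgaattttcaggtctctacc
Mmp10: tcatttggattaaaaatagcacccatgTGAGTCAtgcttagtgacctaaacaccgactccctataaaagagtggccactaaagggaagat
Mmp12: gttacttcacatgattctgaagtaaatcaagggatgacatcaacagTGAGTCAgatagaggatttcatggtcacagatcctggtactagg
Mmp13: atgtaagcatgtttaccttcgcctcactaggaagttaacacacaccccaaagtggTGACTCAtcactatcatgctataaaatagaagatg

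The site begins 111, 193 and 96 bases before the start in Sprr1b, Sprr2d and Rptn, and 63, 44 and 35 bases before it in the metalloproteinase genes Mmp10, Mmp12 and Mmp13. Windows of 250 bases before to 50 bases after the start were given for 9893 of the 13337 compared genes. TGANTCA was present in 5.92% of all 12592 windows, in 14.7% of the 795 windows of genes at least 2-fold higher at 6 weeks and in 6.27% of the 734 windows of genes at least 2-fold lower. Related genes such as the Sprr2 members share upstream sequence, so windows are not independent, and a match of letters is not a binding site. Among the AP-1 genes themselves 3 of 9 rose and 0 fell. The count was 1 without normal replicate 1, 6-week replicate 1 or 6-week replicate 2. Fos measured 5.89, 36 and 6.89 FPKM in normal skin and 21, 15 and 15 FPKM at 6 weeks and was not called, with normal replicate 2 the highest of all 6, and passed without that library (1.27, adjusted p = 0.00458).

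Enzymes that build the barrier rose in 14 of 17 and fell in 1. Casp14, the caspase that processes filaggrin, measured 53.2, 99 and 59 FPKM in normal skin and 869, 1297 and 1125 FPKM at 6 weeks. Tgm3 and Tgm1, transglutaminases that cross-link the envelope, rose by 3.21 and 1.27, and the filaggrin-cleaving protease gene Asprv1 by 2.12. Alox12e, an epidermal lipoxygenase gene, went the other way (211, 202 and 137 FPKM in normal skin and 28.6, 22.2 and 71.9 FPKM at 6 weeks, a log2 fold change of -2.3 ± 0.43 SE with an adjusted p = 0.00688). Kallikreins are serine proteases that cut the junctions between cornified cells, and Spink proteins inhibit such proteases. Of 12 measured members 10 rose, with Klk13, Klk6 and Klk14 at 6.53, 5.41 and 5.32 and Spink7 at 0.705, 1.41 and 0.525 FPKM in normal skin and 303, 759 and 438 FPKM at 6 weeks, a log2 fold change of 7.98 ± 0.35 SE with an adjusted p = 0.000101. Spink5, the main kallikrein inhibitor of normal skin, measured 201, 219 and 189.9 FPKM in normal skin and 194, 255 and 133 FPKM at 6 weeks and did not pass (-0.11, adjusted p = 0.715). The protease genes and Spink7 were thus far above normal skin, while the values of Spink5 overlapped.

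Among 8 connexin and pannexin genes, which encode channels between or out of cells, 3 rose and 1 fell. Gjb2 measured 3.47, 21.8 and 7.28 FPKM in normal skin and 846, 996 and 456 FPKM at 6 weeks. Gjb6 measured 1.69, 3.6 and 1.83 FPKM in normal skin and 153, 209 and 90.3 FPKM at 6 weeks, and Gja1, the most abundant connexin gene in normal skin, rose by 1.86. Panx3 fell (6.2, 15.3 and 5.92 FPKM in normal skin and 0.802, 0.418 and 0.319 FPKM at 6 weeks, a log2 fold change of -2.64 ± 0.35 SE with an adjusted p = 0.0021). The 4 other members were not called. Among them Gjb5 had -0.43 and passed without 6-week replicate 3 (-0.66, adjusted p = 0.0106). Of 14 desmosome genes 6 rose and 3 fell, with 1 lower without normal replicate 1 or 6-week replicate 2. Dsc2 rose from 4.19, 4.9 and 3.43 to 91.7, 102 and 12.7 FPKM with a wide spread, Dsg1b, Dsc1 and Cdsn rose by 1.91, 1.45 and 1.27, and Dsg2 fell by 0.63 on the log2 scale. The transcription factor genes Dlx3 and Ovol1 rose by 1.66 and 1.5, and Trp63, the factor of basal keratinocytes, Gata3 and Ovol2 fell by 0.82, 1.08 and 1.35.

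Genes of cell division rose together. Of 20 DNA replication genes 17 rose and 0 fell (median 0.7), and of 20 mitosis genes 17 rose and 0 fell (median 0.89). Ccne1, a cyclin gene active as cells begin to copy their DNA, measured 1.24, 1.45 and 0.907 FPKM in normal skin and 5.49, 5.65 and 4.89 FPKM at 6 weeks. Birc5, which encodes the mitotic protein survivin, measured 14.4, 16.6 and 17.3 FPKM in normal skin and 40.7, 46.4 and 53.9 FPKM at 6 weeks. Every 6-week library was above every normal library for both genes. With equal totals 10 replication genes rose, and without normal replicate 1, as in the fit of 12 libraries, 11 mitosis genes. Cdkn2a, the p16 and p19 tumour suppressor locus, measured 0.0583, 0.254 and 0 FPKM in normal skin and 5.02, 10.7 and 9.01 FPKM at 6 weeks, a log2 fold change of 3.02 ± 0.26 SE with an adjusted p = 0.000566. Cdkn1a, the p21 gene and main p53 target, measured 116, 148 and 121 FPKM in normal skin and 169, 148 and 139 FPKM at 6 weeks and was not called, and Cdkn1b, the p27 inhibitor, fell by 0.88 on the log2 scale. Of 10 genes of epidermal growth factor receptor ligands and receptors 3 rose and 4 fell (median -0.08, above 0 in 3 alternative settings). Among the ligands Areg and Ereg rose by 2.03 and 1.96 and Btc fell by 1.87.

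Polyamines are small cations needed for growth. Smox and Sat1, which break down spermine and spermidine, rose by 2.03 and 1.88, and Srm, the spermidine synthase gene, by 1.11. Amd1, an enzyme gene of the same pathway, measured 16.4, 9.71 and 19.2 FPKM in normal skin and 0.0137, 0.0286 and 0.0221 FPKM at 6 weeks, but its near-identical copy Amd2 shares 85.7% of its 50-base stretches with it, and the 2 cannot be separated with certainty. Their sum was 45.4, 53.7 and 59.2 FPKM in normal skin and 74.3, 76.0 and 70.8 FPKM at 6 weeks, higher in all 3 libraries. Proteasome core subunits rose in 11 of 14 members and fell in 0 by small amounts (median 0.5, at most 0.79), with 5 higher under equal totals and 7 without 6-week replicate 2. Of 20 genes of the unfolded protein and amino acid stress responses 11 rose and 0 fell, with 1 lower in the fit with the block, in the fit of 12 libraries or without normal replicate 2. Asns, the asparagine synthetase gene, and Chac1, both targets of the factor ATF4, rose by 1.45 and 1.54. Among 20 targets of NRF2, the regulator of antioxidant genes, 10 rose and 2 fell: Slc7a11, the cystine carrier, and Srxn1 rose by 2.15 and 1.87, Gsta4 measured 16.6, 11 and 14.5 FPKM in normal skin and 179, 293 and 51 FPKM at 6 weeks, and Gstm1 and Me1 fell by 1.28 and 1.01.

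**Figure D2:**
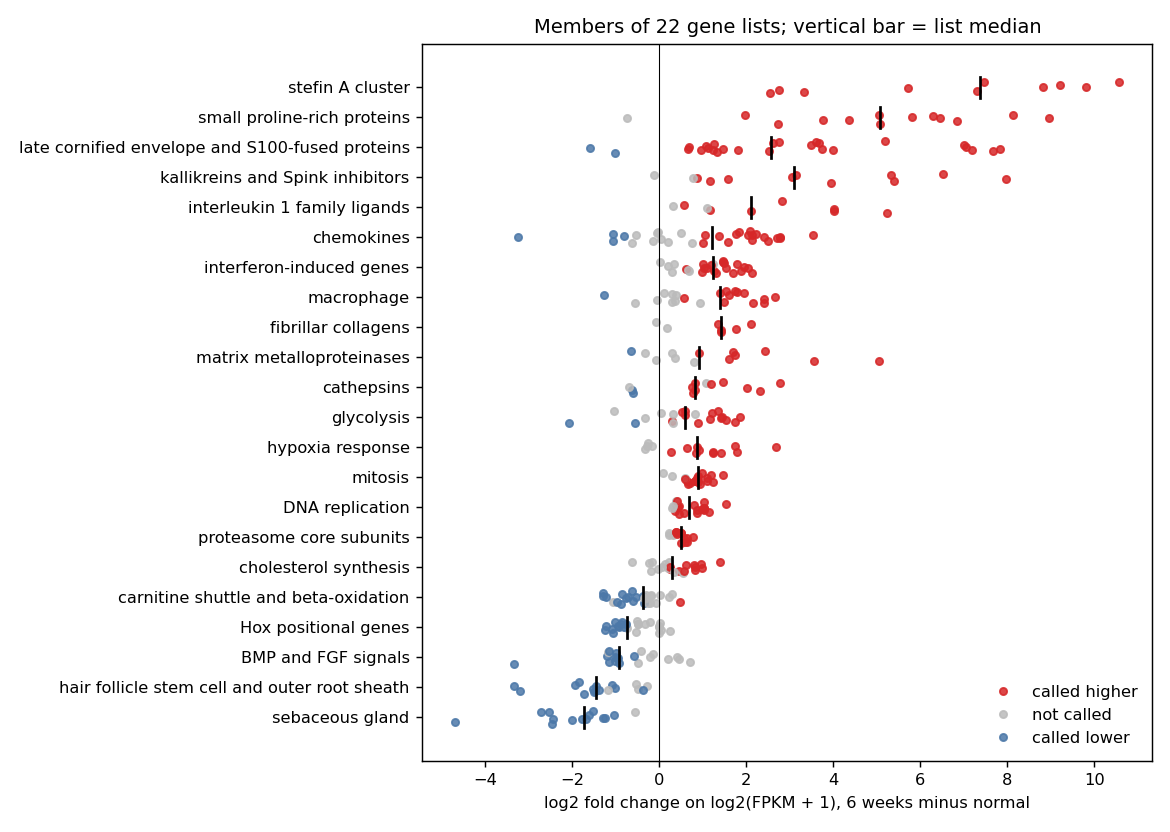
Log2 fold change of each counted member of 22 gene lists (x axis, 6 weeks minus normal on log2(FPKM + 1)), red where called higher, blue where called lower and grey where not called at an adjusted p of 0.05; black bars are list medians. Stefin and small proline-rich genes reach the highest values, follicle stem cell and sebaceous genes lie to the left of 0, and proteasome members sit close to 0 on the right.

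Cytokine ligands of the interleukin 1 family, which keratinocytes and leukocytes release, rose in 7 of 9 members. Among the interleukin 36 genes, Il1f6 measured 2.29, 8.3 and 3.72 FPKM in normal skin and 183, 274 and 150 FPKM at 6 weeks. Il1f8 measured 6.47, 18.1 and 7.98 FPKM in normal skin and 152, 227 and 152 FPKM at 6 weeks. Il1f9 measured 14.1, 31.5 and 19.9 FPKM in normal skin and 150, 191 and 126 FPKM at 6 weeks. All 3 genes were higher in every 6-week library than in any normal one. Il1b measured 1.05, 1.89 and 1.09 FPKM in normal skin and 84.9, 75.3 and 6.96 FPKM at 6 weeks, with replicate 3 far below the others, a log2 fold change of 4.01 ± 0.89 SE with an adjusted p = 0.0125. Il1f5, the interleukin 36 receptor antagonist, also rose (2.12), while Il1rn, the interleukin 1 receptor antagonist, measured 38.4, 56.3 and 41.3 FPKM in normal skin and 60.3, 62.6 and 46.7 FPKM at 6 weeks and was not called, though it passed without normal replicate 2 (0.48, adjusted p = 0.0497). On the receptor side 1 of 7 members rose and 3 fell, among them Il1r1, the signalling receptor, by 0.52, and Il1r2, a decoy, by 1.17 on the log2 scale. Il1rl2, the interleukin 36 receptor, measured 26.3, 29.7 and 32.3 FPKM in normal skin and 23.7, 28.2 and 34.4 FPKM at 6 weeks and was not called.

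Other cytokine and receptor genes moved both ways. Of 10 other cytokine genes 3 rose and 2 fell, with 1 higher without normal replicate 2 or 6-week replicate 2 and 0 in the fit of 12 libraries. Il34, the growth factor of Langerhans cells, measured 61.1, 62.1 and 49.3 FPKM in normal skin and 9.12, 8.79 and 10.8 FPKM at 6 weeks, a log2 fold change of -2.47 ± 0.12 SE with an adjusted p = 0.000161, and Il7 fell by 1.13 on the log2 scale. Of 20 other cytokine receptor genes 7 rose and 6 fell. Il7r, the receptor chain for interleukin 7, rose by 1.12 and Tnfrsf1b, a receptor for tumour necrosis factor, by 1.18. Il6ra and Il6st, the receptor pair for interleukin 6, fell by 1.46 and 1.04, and Il22ra2, a soluble trap for interleukin 22, by 3.21. Outside this list, Il31ra, the itch receptor, was among the 10 lowest of all genes and measured 16.1, 11.8 and 9.87 FPKM in normal skin and 0.37, 0.0584 and 0.11 FPKM at 6 weeks. In each of the genes named here the groups did not overlap.

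Of 30 measured chemokine genes 17 rose and 4 fell (median 1.22), with 11 higher in the fit of 12 libraries. Among those with a mean of 5 FPKM or more over the 6 libraries 8 rose. Ccl2, which draws monocytes, measured 2.35, 4.53 and 8.99 FPKM in normal skin and 45.6, 41.2 and 29.9 FPKM at 6 weeks. Cxcl2, which draws neutrophils, measured 0, 0.0612 and 0.0586 FPKM in normal skin and 17.4, 24.3 and 2.74 FPKM at 6 weeks. Cxcl10, induced by interferon, rose by 2.72, and Ccl17, a ligand of the receptor Ccr4 on T cells, by 2.77. The largest fall was that of Ccl27a, the chemokine that keratinocytes make to hold T cells in skin (239.5, 205 and 181 FPKM in normal skin and 15.9, 14.6 and 40 FPKM at 6 weeks, a log2 fold change of -3.23 ± 0.37 SE with an adjusted p = 0.00137), and Cxcl14, made by resting epidermis, fell by 1.06. Of 14 receptors 6 rose and 5 fell (median 0.39). Among those with a mean of 5 FPKM or more over the 6 libraries 2 rose, and the median was -1.09. The 6 rises included signalling receptors of neutrophils and monocytes, Cxcr2 (0.655, 2.02 and 1.12 FPKM in normal skin and 12.5, 12.7 and 12.5 FPKM at 6 weeks) and Ccr1 (2.43). The 3 with the largest falls were scavenging receptors that take up chemokines without signalling, Ccbp2 (16.6, 17.7 and 28.4 FPKM in normal skin and 2.03, 1.68 and 2.74 FPKM at 6 weeks), Ccrl1 (48.5, 50.5 and 66.7 FPKM in normal skin and 7.72, 7.58 and 9.34 FPKM at 6 weeks) and Darc (-1.43).

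**Figure D3:**
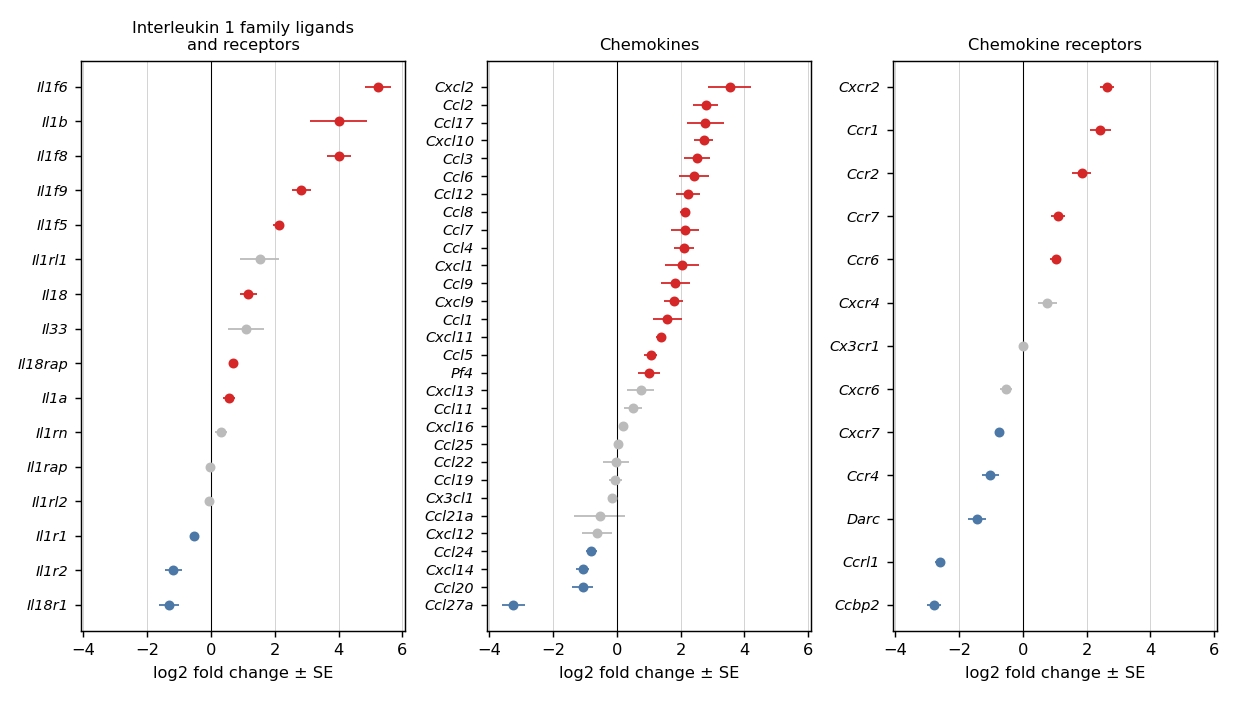
Log2 fold change ± SE (x axis, 6 weeks minus normal, 3 libraries a group) of members of the lists of interleukin 1 family ligands and receptors, chemokines and chemokine receptors, red where called higher, blue where called lower and grey where not called. Il1f6, Il1b and Il1f8 lead the first panel with Il18r1, Il1r2 and Il1r1 at the bottom, and Ccl27a and the scavenging receptors Ccbp2 and Ccrl1 are the lowest of the other panels.

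Of 17 antimicrobial and acute-phase genes 8 rose and 2 fell. Saa3 measured 0.206, 0.462 and 0.541 FPKM in normal skin and 464, 435 and 12.2 FPKM at 6 weeks, a log2 fold change of 6.64 ± 1.34 SE with an adjusted p = 0.00907, with replicate 3 far below the others. Slpi, a protease inhibitor of epithelia, measured 2.5, 3.19 and 2.63 FPKM in normal skin and 220.1, 328 and 78.6 FPKM at 6 weeks. Wfdc12, of the same inhibitor family, measured 0.423, 0.393 and 0.36 FPKM in normal skin and 129.9, 188 and 116 FPKM at 6 weeks. The defensin gene Defb14 rose by 3.8, Defb3 was listed at 0 in all normal libraries and measured 57.7, 96.9 and 28.3 FPKM at 6 weeks, and Defb6 fell (2196, 2312 and 2950 FPKM in normal skin and 423, 307 and 406 FPKM at 6 weeks, a log2 fold change of -2.71 ± 0.19 SE with an adjusted p = 0.000322). Of 25 interferon-induced genes 18 rose and 0 fell (median 1.25), but 3 rose in the fit of 12 libraries. Oas1a and Oas3 are sensors of double-stranded RNA. Oas1a measured 1.94, 2.3 and 3.37 FPKM in normal skin and 16, 11.3 and 10.9 FPKM at 6 weeks. Oas3 measured 0.444, 0.604 and 1.38 FPKM in normal skin and 7.56, 5.85 and 5.69 FPKM at 6 weeks. Normal replicate 3 was the highest of its group in both. Of 13 class I presentation genes 1 rose and 3 fell, with B2m at 1836, 2024 and 2096 FPKM in normal skin and 1918, 1815 and 2135 FPKM at 6 weeks. The falls were 1 without normal replicate 1 or 3 and 0 without 6-week replicate 2 or in the fit of 12 libraries, and the count of rises was 0 in that fit and without any single library other than normal replicate 3. Of 16 complement genes 6 rose and 2 fell, with 2 higher without normal replicate 1 and 3 without 6-week replicate 2. The falls were 1 in the fit of 12 libraries and without any one of normal replicates 1 and 2 and 6-week replicates 2 and 3. Cd55, which shields cells from complement, fell by 2.15 and C3ar1 rose by 1.99.

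Markers of leukocytes moved in different directions. Of 21 macrophage genes 12 rose and 1 fell (median 1.4). Trem2 measured 0.889, 0.718 and 0.525 FPKM in normal skin and 12, 7.55 and 5.68 FPKM at 6 weeks. Lyz2 measured 52.7, 118 and 59.2 FPKM in normal skin and 532, 344 and 191 FPKM at 6 weeks, with replicate 3 lowest for Trem2 and Lyz2. Apoe, the gene that fell (-1.26), is one that keratinocytes and sebaceous cells also make. Folr2, of resident macrophages, measured 7.78, 20.1 and 10.6 FPKM in normal skin and 21, 17.9 and 8.4 FPKM at 6 weeks and was not called. Of 15 neutrophil genes 5 were measured, of which 3 rose, among them Clec4d (0, 0.0812 and 0.265 FPKM in normal skin and 17.3, 14.2 and 3.03 FPKM at 6 weeks), and 1 fell, Il1r2, named above. Of 10 measured T and NK cell genes 1 rose and 3 fell: Cd4, also made by macrophages, rose by 1.7, Cd3g measured 26, 22.6 and 40.8 FPKM in normal skin and 4.6, 9.72 and 4.53 FPKM at 6 weeks, a log2 fold change of -2.11 ± 0.32 SE with an adjusted p = 0.00357, and Nkg7 fell by 1.72. Without 6-week replicate 2 the count of falls was 5. The summed FPKM of the T and NK list was 62.2, 53.5 and 84.1 in normal skin and 25.5, 52.5 and 25.1 at 6 weeks. Each 6-week sum was below every normal one, but 6-week replicate 2 only narrowly, and Cd3g held a large part of the normal sums. Among 7 mast cell genes 1 rose and 3 fell. Tpsab1, a tryptase gene, rose by 1.73, a call lost without 6-week replicate 1 (adjusted p = 0.0503). Of those that fell, Mcpt4, the connective tissue chymase, measured 39.5, 54.1 and 26.7 FPKM in normal skin and 19, 11.6 and 12 FPKM at 6 weeks. In the fit of 12 libraries 0 mast cell genes fell, without 6-week replicate 2 the count was 1, and without normal replicate 3 it was 5. Langerhans cell marker Cd207 measured 22.6, 33.7 and 34.6 FPKM in normal skin and 14.2, 21 and 28 FPKM at 6 weeks and was not called, but passed in the fit with a block for the replicate number (adjusted p = 0.0202). Of 10 dendritic and Langerhans cell genes 4 rose and 1 fell (median 0.18), with 2 lower in the fit with the block and 0 in the fit of 12 libraries or without 6-week replicate 1 or 2. Fscn1 and Itgax rose by 2.17 and 1.48.

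Collagen genes of the dermis rose. Of 7 measured fibrillar collagen genes 5 rose and 0 fell (median 1.42). Col1a1 measured 24.5, 36.8 and 17.2 FPKM in normal skin and 151, 90.2 and 101 FPKM at 6 weeks, a log2 fold change of 2.11 ± 0.31 SE with an adjusted p = 0.00291. Col1a2 measured 61.4, 96.6 and 60.2 FPKM in normal skin and 323, 216 and 212 FPKM at 6 weeks. Col5a1 and Col5a2, which start type I fibrils, rose by 1.42 and 1.42. Col3a1 measured 77.1, 173 and 78.6 FPKM in normal skin and 389, 235 and 199 FPKM at 6 weeks, a log2 fold change of 1.36 ± 0.38 SE with an adjusted p = 0.0285. The call of Col3a1 was lost without normal replicate 1 or 3 or 6-week replicate 1 or 2, with adjusted p up to 0.09. It was also lost under equal totals (1.14, adjusted p = 0.0521). Of 18 other collagen genes 8 rose and 5 fell, with 4 higher without 6-week replicate 1 and 5 in the fit of 12 libraries or under equal totals. Col12a1 and Col6a3, of the dermal matrix, rose by 1.97 and 1.42. The falls included Col17a1, the hemidesmosome collagen of basal keratinocytes (382, 363 and 495 FPKM in normal skin and 176, 194 and 161 FPKM at 6 weeks), the basement membrane chains Col4a5 (-1.09) and Col4a6 (-1.67), and Col8a2 (9.12, 7.52 and 8.96 FPKM in normal skin and 0.675, 0.335 and 0.229 FPKM at 6 weeks, a log2 fold change of -2.76 ± 0.15 SE with an adjusted p = 0.000198).

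Genes that respond to TGF-beta did not move one way. Of 22 measured members 8 rose and 5 fell (median 0.14, -0.04 under equal totals), with 2 lower in the fit of 12 libraries and 3 without 6-week replicate 1 or 3. Tnc, the tenascin C gene, measured 3.36, 7.86 and 2.46 FPKM in normal skin and 86, 78.4 and 27 FPKM at 6 weeks. Of 20 fibroblast marker genes 3 rose and 5 fell (median 0.04), with 1 higher in the fit of 12 libraries, 5 without normal replicate 2 and 6 without 6-week replicate 3. Cthrc1 and Lrrc15 are known from matrix-producing fibroblasts. Both are outside that list, so their rise is no measure of it. Cthrc1 measured 0.298, 0.472 and 0.399 FPKM in normal skin and 12.4, 7.25 and 7.24 FPKM at 6 weeks. Lrrc15 measured 0.984, 6.17 and 2.1 FPKM in normal skin and 19.5, 12.4 and 16.6 FPKM at 6 weeks. Ctgf, a classic target, fell (34.6, 34.9 and 50.1 FPKM in normal skin and 20.1, 13.7 and 13.3 FPKM at 6 weeks, a log2 fold change of -1.29 ± 0.21 SE with an adjusted p = 0.00415), as did Tgfbi (-0.84) and the smooth muscle myosin light chain gene Myl9 (-1.18). Postn, the periostin gene, measured 279, 307 and 318 FPKM in normal skin and 252, 179 and 339.9 FPKM at 6 weeks. Thy1, the CD90 gene, measured 41.3, 67.7 and 35.9 FPKM in normal skin and 95.2, 79.2 and 52.5 FPKM at 6 weeks. Neither was called. Thy1 passed without normal replicate 2 (0.91, adjusted p = 0.034). Of 19 genes of TGF-beta ligands, receptors and latency proteins 2 rose and 6 fell (median -0.18). The rises were 1 without any one of normal replicates 1 and 2 and 6-week replicates 1 and 2. Tgfb1 itself rose by 0.61, while Tgfbr3, a co-receptor, and Ltbp4, which binds the latent form, fell by 1.12 and 1.52. Fn1, the fibronectin gene, measured 19.7, 40.3 and 25.2 FPKM in normal skin and 73.8, 51 and 25.1 FPKM at 6 weeks and was not called (0.73, adjusted p = 0.203), but passed without 6-week replicate 3 (1.15, adjusted p = 0.038).

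Other matrix genes moved both ways. Of 9 small leucine-rich proteoglycan genes 2 rose and 3 fell, with 1 higher in the fit with the block or without any one of normal replicates 1 and 2 and 6-week replicates 1 and 2, and 0 lower in the fit of 12 libraries. Bgn, the biglycan gene, rose (37.2, 43.3 and 23 FPKM in normal skin and 181, 110.3 and 80.8 FPKM at 6 weeks) and Ogn, another small proteoglycan of the same family, fell (12.7, 19.1 and 20.8 FPKM in normal skin and 7.92, 5.46 and 6.61 FPKM at 6 weeks). The hyaluronan genes Has3, a synthase, and 9930013L23Rik, now named Cemip and needed for hyaluronan breakdown, rose by 2.76 and 3.04, and Vcan, a proteoglycan that binds hyaluronan, by 1.63. Of 9 measured hyaluronan and versican genes 5 rose and 0 fell. Of 17 fibronectin and matricellular genes 6 rose and 3 fell, with 6 lower in the fit with the block or without normal replicate 3. Tnxb, which spaces collagen fibrils, and Smoc2 fell by 1.77 and 1.42. Sparc rose by 1.4 and Spp1, osteopontin, by 2.38. Of 21 integrin and laminin genes 3 rose and 7 fell. The falls were 4 without 6-week replicate 2 or in the fit of 12 libraries. The rises were 1 under equal totals or without any one of normal replicates 1 and 3 and 6-week replicates 1 and 2. Itga5, the fibronectin receptor chain, rose by 1.08 and Itga2, a collagen receptor chain, fell by 1.02.

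Matrix proteases rose, and their inhibitors moved both ways. Of 13 metalloproteinase genes 7 rose and 1 fell. Mmp12, the macrophage elastase, measured 0.256, 1.07 and 0.223 FPKM in normal skin and 51.4, 42.9 and 50.9 FPKM at 6 weeks, a log2 fold change of 5.07 ± 0.22 SE with an adjusted p = 0.000101. Mmp13, a collagenase, measured 0, 0.0359 and 0.16 FPKM in normal skin and 13.1, 15.6 and 7.65 FPKM at 6 weeks. Mmp10 measured 0, 0.0476 and 0.103 FPKM in normal skin and 6.79, 8.83 and 1.45 FPKM at 6 weeks. Mmp2, the gelatinase of fibroblasts, measured 43, 59.6 and 35.3 FPKM in normal skin and 119.6, 95.7 and 44.4 FPKM at 6 weeks and was not called, but passed without 6-week replicate 3 (1.23, adjusted p = 0.0124) and in the fit with the replicate block (adjusted p = 0.0445). Timp1, an inhibitor of these enzymes, rose (1.35, 2.3 and 4.13 FPKM in normal skin and 82.9, 78.5 and 16.1 FPKM at 6 weeks, a log2 fold change of 3.83 ± 0.65 SE with an adjusted p = 0.00501), whereas Timp3, which is bound to matrix, fell (111, 108 and 115 FPKM in normal skin and 44.3, 31.4 and 41.7 FPKM at 6 weeks, a log2 fold change of -1.5 ± 0.14 SE with an adjusted p = 0.000673), as did Timp4 (-1.22). In FPKM, Timp1 stood below Timp3 in every normal library, and above it in 6-week replicates 1 and 2. Of 13 cathepsin genes 9 rose and 2 fell, with 1 lower in the fit of 12 libraries. Ctsk, a collagen-degrading cathepsin, measured 38.7, 42.8 and 32.4 FPKM in normal skin and 227, 175 and 94.8 FPKM at 6 weeks. Ctss, of antigen-presenting cells, measured 24.5, 42.5 and 38.7 FPKM in normal skin and 344, 236 and 171 FPKM at 6 weeks. Cathepsins are the proteases that stefins are known to inhibit.

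**Figure D4:**
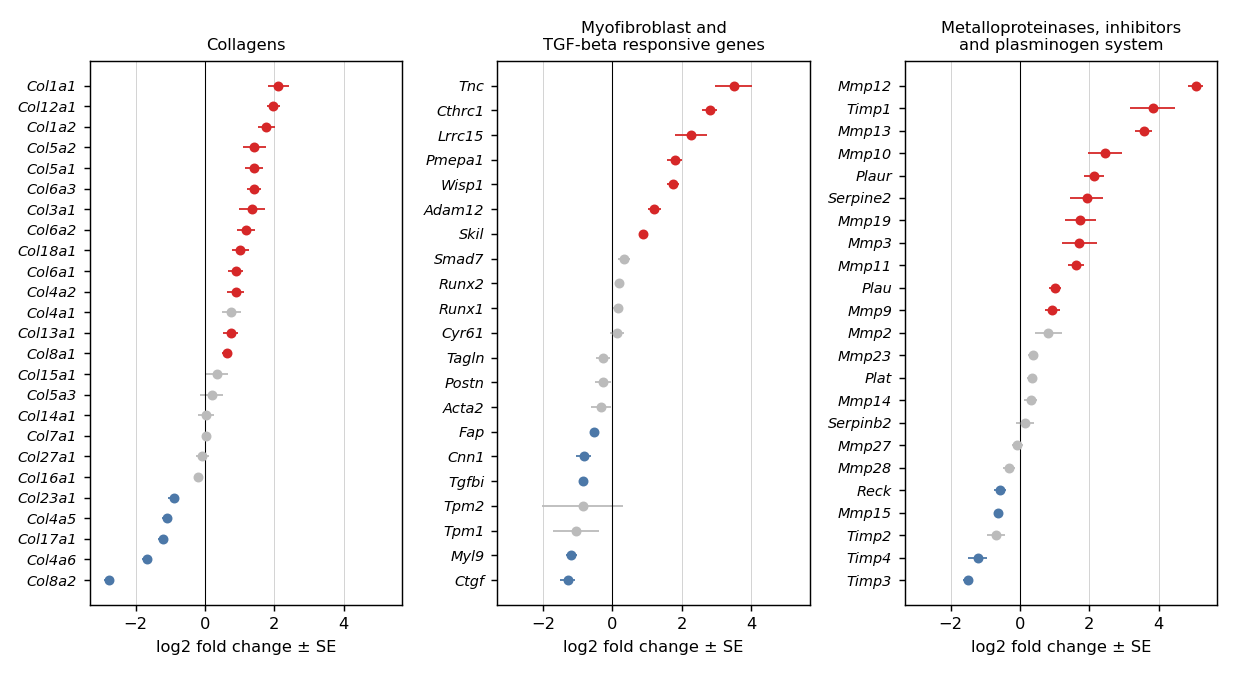
Log2 fold change ± SE (x axis, 6 weeks minus normal, 3 libraries a group) of members of the lists of collagens, of myofibroblast and TGF-beta responsive genes and of metalloproteinases, their inhibitors and the plasminogen system, red where called higher, blue where called lower and grey where not called. Col1a1 and Tnc are near the top of their panels while Col8a2, Ctgf and Timp3 are at or near the bottom.

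The title of the study concerns fatty acid oxidation and glycolysis. Of 21 glycolysis genes 13 rose and 2 fell (median 0.61). Pgam1 measured 76.7, 102 and 72 FPKM in normal skin and 310, 340.1 and 264 FPKM at 6 weeks. Pgk1 measured 143, 129 and 187 FPKM in normal skin and 467, 463 and 391 FPKM at 6 weeks. Pkm measured 188, 127 and 167 FPKM in normal skin and 416, 437 and 447 FPKM at 6 weeks. Aldoa measured 894, 299.9 and 1184 FPKM in normal skin and 653, 578 and 936 FPKM at 6 weeks. Gapdh measured 646, 240.4 and 658 FPKM in normal skin and 777, 802 and 912 FPKM at 6 weeks. Neither was called, and both were lowest in normal replicate 2, the normal library with the least muscle RNA. The part of muscle in the other values was not tested. Ldhb, the lactate dehydrogenase of oxidative tissue, fell (92.5, 67.5 and 89.2 FPKM in normal skin and 20.4, 14.5 and 23.3 FPKM at 6 weeks). Pfkfb3, which makes the activator of phosphofructokinase, rose by 0.54 (adjusted p = 0.0198), a call lost without normal replicate 1 or 6-week replicate 1 or 2, with adjusted p up to 0.069. Under equal totals the call of Pfkfb3 was also lost (0.33, adjusted p = 0.111). The lactate carriers Slc16a1 and Slc16a3 rose by 1.39 and 1.47. Of 15 hypoxia response genes 11 rose and 0 fell, led by Egln3 (27.4, 52.5 and 23.9 FPKM in normal skin and 181, 205 and 267 FPKM at 6 weeks), with 7 higher in the fit of 12 libraries.

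Of 26 carnitine shuttle and beta-oxidation genes 13 fell and 1 rose, where 24.6% of all genes fell and 21% rose. Crat, carnitine acetyltransferase, measured 27.4, 23.4 and 21.4 FPKM in normal skin and 10.3, 6.98 and 11 FPKM at 6 weeks. Decr1, an enzyme for unsaturated fatty acids, measured 24.9, 27.5 and 29.5 FPKM in normal skin and 10.8, 11.3 and 11.1 FPKM at 6 weeks. Cpt1a, the entry enzyme of mitochondria, measured 25.4, 38.4 and 32.8 FPKM in normal skin and 31.8, 42.3 and 45.8 FPKM at 6 weeks and was not called (0.31, 95% interval -0.15 to 0.77). Cpt2, the inner membrane enzyme, rose (0.49). Cd36, the fatty acid receptor, measured 73.7, 59.7 and 57.8 FPKM in normal skin and 29.8, 32.3 and 20.7 FPKM at 6 weeks with no overlap, a log2 fold change of -1.19 ± 0.18 SE with an adjusted p = 0.00359. In the fit of 12 libraries its adjusted p was 0.114. Among 14 uptake genes 5 fell and 2 rose (3 and 1 in the fit of 12 libraries): Acsl4 and Acsl5, which activate fatty acids, fell by 1.65 and 1.06, while the lipid carrier gene of epidermis, Fabp5, measured 297, 479 and 200.3 FPKM in normal skin and 6379, 7782 and 6414 FPKM at 6 weeks. Ppara, the receptor that turns on oxidation, measured 7.09, 7.14 and 7.7 FPKM in normal skin and 0.708, 0.505 and 0.797 FPKM at 6 weeks, a log2 fold change of -2.32 ± 0.11 SE with an adjusted p = 0.000126, and Ppard, which keratinocytes raise when injured, rose by 1.04. Of 14 retinoid genes 8 rose and 1 fell. The rises included the retinoic acid synthase gene Aldh1a3 (1.98), and the count of falls was 4 in the fit with a block for the replicate number. In the clock list 2 of 16 rose and 4 fell: Arntl, the core activator, and Npas2, its partner, fell by 1.07 and 2.06, and Bhlhe40, a repressor also induced by hypoxia, rose by 2.07.

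Genes of the hair follicle and its sebaceous gland fell, while those of the hair shaft rose. Of 17 genes of the outer root sheath and the stem cells of the follicle, 13 fell and 0 rose (median -1.45). Krt15, a keratin of the bulge and basal layer, measured 2079, 1564 and 1876 FPKM in normal skin and 251, 189.5 and 169 FPKM at 6 weeks, a log2 fold change of -3.18 ± 0.19 SE with an adjusted p = 0.000228. Fgf18, which keeps follicles at rest, measured 17.3, 10.4 and 13.2 FPKM in normal skin and 0.586, 0.574 and 0.176 FPKM at 6 weeks, and the stem cell factor genes Lhx2, Tbx1 and Foxc1 fell by 1.84, 1.73 and 1.92. Of 14 sebaceous genes 13 fell and 0 rose (median -1.72). The desaturase gene Scd3 measured 75.8, 91 and 38 FPKM in normal skin and 3.96, 0.92 and 0.742 FPKM at 6 weeks. Awat2, a wax synthase gene of the gland, measured 16.1, 8.31 and 9.23 FPKM in normal skin and 1.14, 1.07 and 0.895 FPKM at 6 weeks. Mc5r, its melanocortin receptor, measured 7.01, 11.9 and 3.77 FPKM in normal skin and 0.644, 0.222 and 0.533 FPKM at 6 weeks. Scd2, the desaturase of other tissues, rose instead (33.7, 28.4 and 26.5 FPKM in normal skin and 99.8, 92.1 and 95.4 FPKM at 6 weeks, a log2 fold change of 1.67 ± 0.11 SE with an adjusted p = 0.000285).

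Of 15 hair shaft keratins 14 rose and 0 fell (median 3.24). The spread in normal skin was wide: their summed FPKM was 8.27, 130.5 and 31.3 in replicates 1, 2 and 3, against 576, 394 and 673 at 6 weeks. Krt35 measured 0.319, 8.91 and 1.73 FPKM in normal skin and 72.1, 44 and 100 FPKM at 6 weeks. Krt85 measured 0.157, 16.5 and 3.14 FPKM in normal skin and 110.4, 72.2 and 143 FPKM at 6 weeks. Normal replicate 2 was the highest and normal replicate 1 the lowest for both, and still all 6-week libraries were above. Of 10 inner root sheath genes 4 rose, while 8 rose without normal replicate 1, 10 without normal replicate 2 and 2 without 6-week replicate 1. Of 15 regulators of the growing hair 6 rose and 4 fell (median 0.35). Lef1 and Hoxc13 rose by 1.69 and 1.24, and Bmp2 and Bmp4 were among those that fell. The hair cycle stage of the animals is not given in the labels, and its part in these values was not tested.

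Among signals between dermis and follicle, BMP and FGF genes fell most often, where 24.6% of all genes fell and 21% rose. Of 20 BMP and FGF genes 11 fell and 0 rose, with 1 higher in the fit with the block or without 6-week replicate 3 and 2 without normal replicate 2. Bmp2 measured 12.5, 12.7 and 12.5 FPKM in normal skin and 4.09, 4.86 and 6.14 FPKM at 6 weeks. Bmp4 measured 11.9, 10.6 and 9.25 FPKM in normal skin and 4.88, 3.59 and 5.83 FPKM at 6 weeks. Fgfr1 measured 36.2, 27.7 and 22.6 FPKM in normal skin and 14.8, 10.5 and 11.4 FPKM at 6 weeks. Of 21 genes of Wnt ligands and antagonists 3 rose and 7 fell (median -0.5). Wnt5a and Wnt4 rose by 1.17 and 1.0, and Axin2, a target of Wnt signalling, and Wnt3 fell by 1.13 and 1.03. Of 16 hedgehog and Notch genes 1 rose and 5 fell, and Jag2, a Notch ligand, fell by 1.4. The falls were 3 in the fit with the block or without normal replicate 2. They were 2 without normal replicate 1 or 6-week replicate 1 or 2. The rises were 0 in the fit with the block, in the fit of 12 libraries and without any single library. Of 25 listed Hox genes, which record body position, 11 fell and 0 rose. The falls were 6 without normal replicate 1 or 6-week replicate 2 and 7 without 6-week replicate 1. Hoxc13, which rose by 1.24, is not in this list and was counted among the regulators of the growing hair. Hoxb3 measured 7.49, 6.07 and 7.96 FPKM in normal skin and 1.96, 2.44 and 3.03 FPKM at 6 weeks. Hoxc8 measured 14.6, 16.2 and 12 FPKM in normal skin and 6.8, 6.56 and 5.49 FPKM at 6 weeks. The body site of each sample is not given in the labels, and its part in these values was not tested.

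Of 18 adipocyte genes 8 fell and 1 rose (median -1.06), with 3 lower in the fit of 12 libraries and 4 or 5 lower without any single 6-week replicate. Adipoq measured 165, 114 and 63.2 FPKM in normal skin and 53.3, 50.5 and 24.9 FPKM at 6 weeks, with adjusted p = 0.0384 and up to 0.106 with 1 library left out. Aqp7, the glycerol channel of fat cells, measured 6.16, 4.63 and 5.2 FPKM in normal skin and 1.16, 1.58 and 1.16 FPKM at 6 weeks, and Car3 fell by 1.57. Fabp4, also made by macrophages and endothelium, rose from 1498, 1102 and 1143 to 3347, 4936 and 1896 FPKM, a call lost without normal replicate 2 or 3 or 6-week replicate 1 or 2. Of 9 caveola genes 5 fell and 0 rose, with 3 lower in the fit of 12 libraries. Cav1, caveolin 1, measured 173, 170.1 and 154 FPKM in normal skin and 99.4, 87.5 and 56.9 FPKM at 6 weeks, a log2 fold change of -1.05 ± 0.21 SE with an adjusted p = 0.00798. Of 12 Schwann cell and nerve genes 7 fell and 0 rose, with 4 lower without 6-week replicate 1 or 2 and 2 in the fit of 12 libraries. The myelin gene Mbp measured 47.1, 30.7 and 40.1 FPKM in normal skin and 17.1, 16.6 and 18.3 FPKM at 6 weeks and was called. Of 16 blood endothelial genes 3 fell (0 in the fit of 12 libraries, 1 without normal replicate 1 and 5 without normal replicate 3), and Pecam1 measured 28.8, 28 and 17.8 FPKM in normal skin and 28.3, 30.2 and 18.1 FPKM at 6 weeks. Of 11 pericyte and smooth muscle genes 3 fell and 0 rose, against 7 and 1 in the fit with a block for the replicate number. The falls were 5 without normal replicate 2 and 1 in the fit of 12 libraries. Myh11, a smooth muscle myosin gene, fell by 1.35. None of 17 measured skeletal muscle genes was called (13 lower in the fit with the block), at values that varied widely within each group.

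**Figure D5:**
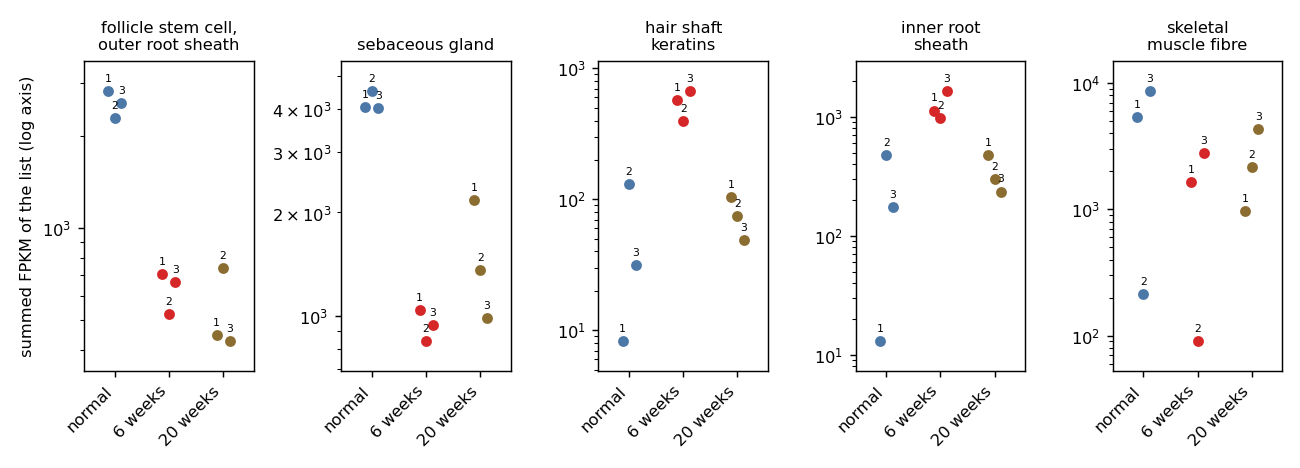
Summed FPKM of 5 gene lists (y axes, log scale, 1 panel a list) in normal skin and in fibrotic skin of either time point, with each library shown by its replicate number. Follicle stem cell and sebaceous sums are lower in all 3 libraries at 6 weeks than in normal skin, hair shaft and inner root sheath sums are higher at 6 weeks than in either other group, and muscle sums differ more within groups than between them.

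The single genes with the largest rises, beyond those above, included 2610528A11Rik, which encodes a small epidermal peptide (1.27, 1.52 and 1.18 FPKM in normal skin and 384, 595 and 579 FPKM at 6 weeks, a log2 fold change of 7.78 ± 0.18 SE with an adjusted p = 2.3e-05), and the largest falls included Serpina3b (181, 423 and 117 FPKM in normal skin and 14.2, 6.55 and 1.75 FPKM at 6 weeks), Ifitm6 (103, 111 and 84.2 FPKM in normal skin and 4.96, 4.86 and 1.61 FPKM at 6 weeks) and Paqr7, a progestin receptor gene (106, 101 and 45.1 FPKM in normal skin and 6.62, 5.61 and 5.51 FPKM at 6 weeks). Hamp2, a hepcidin gene, was listed at 0 in all 6-week libraries and measured 47.2, 8.62 and 17.9 FPKM in normal skin.

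The 6-week libraries were also set against fibrotic skin at 20 weeks to see how far the state at 6 weeks differed from the later one. Of 13034 genes compared 531 were called (4.07%), 208 higher at 6 weeks (1.6%) and 323 lower (2.48%), and the groups did not overlap for 31.7%, but a fit of all 12 libraries called 5, and leaving out 1 library gave 24 (without 20-week replicate 2) to 878 calls (without 20-week replicate 1). Without 6-week replicate 1 the count was also 24. Of 10 stefins 1 was called higher at 6 weeks than at 20 weeks, at a median log2 fold change of 1.08 for the list. None of 13 small proline-rich genes was called, at a median of 0.89, and of 26 late envelope genes 1 was higher and 3 were lower, at a median of -0.37. The median of all genes was -0.02. Hair genes were among the higher ones: 13 of 15 hair shaft keratins were higher at 6 weeks than at 20 weeks, and the hair protein genes Krtap19-1 (11.9, 14.5 and 44.8 FPKM at 6 weeks and 0.999, 0.361 and 0.772 FPKM at 20 weeks) and Krtap15 (171, 143 and 252 FPKM at 6 weeks and 23.9, 13.7 and 8.99 FPKM at 20 weeks) had log2 fold changes of 3.63 and 3.58 (adjusted p = 0.132 and 0.178 in the fit of 12 libraries). The CD8 T cell genes Cd8a and Cd8b1 and genes of antigen presentation were among the lower ones. Cd8a and Cd8b1 were below 1 FPKM in all 6-week libraries, so they passed the filter only through the 20-week libraries, where they were high. Cd8a measured 0.05, 0.41 and 0.431 FPKM at 6 weeks and 7.97, 6.67 and 8.9 FPKM at 20 weeks and Cd8b1 0.103, 0.401 and 0.183 FPKM at 6 weeks and 5.99, 5.47 and 6.85 FPKM at 20 weeks, with log2 fold changes of -2.78 and -2.53 (adjusted p = 0.00151 and 0.00145, and 0.0942 and 0.0909 in the fit of 12 libraries), and 7 of 13 class I presentation genes were lower at 6 weeks. Ubd, an interferon-induced modifier, measured 1.87, 2.31 and 3.08 FPKM at 6 weeks and 65.6, 16.4 and 16.2 FPKM at 20 weeks, and its adjusted p reached 0.119 with 1 library left out and was 0.202 in the fit of 12 libraries.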

How the data were processed

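Messenger RNA of whole skin was sequenced from poly-A libraries made with a stranded kit, per the labels' protocols. The deposited values are FPKM per gene, made by the authors on mm10. The submitters' processing notes list Cufflinks 2.2.1, TopHat2 2.0.13, Bowtie2 2.2.3, R 3.1.1, SAMtools 1.0, cutadapt 1.7.1 and FastQC 0.11.2 without their roles. For annotation and scaling the entry is not given in the sources used here, and depth is unknown. Genes at or above 1 FPKM in 3 or more of the 6 libraries were taken as log2(FPKM + 1) and fitted with limma 3.58.1 in R 4.3.3, with a trend in the variance and Benjamini-Hochberg adjustment over all genes compared, and the script was tested on simulated data. Fold changes on this scale understate those of low genes. An exact 0 can be a failed estimate, so genes at 0 throughout a group get no fold. Same-numbered libraries of normal and 6-week skin had correlated deviations from their group means (0.101, 0.319 and 0.105). All were above 0.1, and a fit with a block for the number was run as an alternative. Normal replicate 1 correlated more closely with 6-week replicate 3 (0.252), and 20-week fibrotic replicate 1 reached 0.32 with 6-week replicate 2. These correlations therefore cannot show that the numbers are pairs. The labels do not say what a number marks. The fit with a block for the number is given beside each count of calls in a list that it moved by over 1.5 times.

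The genes to compare and the 85 gene lists were chosen with earlier results of these data known. Genes named came from this rule. In each list these were up to 5 called members with at least a 2-fold change, no overlap and a mean of 5 FPKM or more, up to 3 uncalled members by mean FPKM, called members against the majority, and all members of lists with 8 or fewer. Over all genes these were the 10 highest, the 10 lowest and the 10 of smallest p at 100 FPKM or more, and always Adipoq, Mmp2, Col3a1, Col1a1, Cav1, Fn1, Thy1, Cd36, Pfkfb3 and Cpt1a. Amd2, Lce3a and Lce3f were named after their values were seen. Alternatives were another pseudocount, filter, scaling, variance model and threshold, a fit of all 12 libraries, the block, and leaving out each library. A few genes that this rule names are not reported here, in the text or the figures.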

Additional observations from a re-analysis of the deposited data

Results flagged for a closer look

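The change from 6 to 20 weeks of fibrotic skin, tested with limma as a difference between the groups, singled out 10 genes, the 5 with the largest change in each direction. Higher at 6 weeks were hair protein genes, with log2 fold changes of 3.63 for Krtap19-1, 3.58 for Krtap15, 3.43 for Krtap16-1, 3.38 for Krtap19-5 and 3.36 for Krtap16-3. Lower at 6 weeks were Amd1 (-5.31), Oaz1-ps (-3.46), Ubd (-3.0), Cd8a (-2.78) and Cd8b1 (-2.53). Amd1 has a near-identical copy, Amd2, and Oaz1-ps is named as a pseudogene of Oaz1, so that their single values are uncertain. The sum of Amd1 and Amd2 was 74.3, 76.0 and 70.8 FPKM at 6 weeks and 82.1, 60.4 and 77.8 FPKM at 20 weeks, with overlap. Amd1, Cd8a and Cd8b1 kept their calls with any 1 library left out, and the 7 others lost theirs without at least 1 library. In the fit of all 12 libraries Amd1 alone of the 10 was called, with adjusted p = 0.0942 for Cd8a and 0.0909 for Cd8b1.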

How the results depend on the processing

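Against normal skin, the number of genes called stayed within 1.5 times of 6079 except at an adjusted p under 0.01, with 3266 calls, 1554 higher and 1712 lower. Equal totals gave 1830 higher and 4974 lower genes. The fit with the replicate block called 5901. Leaving out 1 library gave 4246 to 5501 calls. Of the 220 genes named with a fold change, 14 lost their call in the fit of 12 libraries, namely Adipoq, Aldh1a3, Car3, Cd36, Cxcl10, Fabp4, Il1r2, Mcpt4, Myh11, Myl9, Oas3, Ogn, Slc16a3 and Timp4. Equal totals removed the calls of Col3a1 and Pfkfb3, and no filter on low values those of Adipoq and Fabp4. Genes near no change switched sign. Median-of-ratios scaling gave 0.0499 for Krt17, 0.0147 for Il1rl2 and 0.0386 for B2m, and equal totals gave -0.171 for Aldoa and -0.177 for Pecam1. With 1 library left out, the log2 fold change ranged from -0.361 to 0.337 for Krt17, -0.541 to 0.448 for Aldoa, -0.177 to 0.0826 for Il1rl2, -0.0872 to 0.0299 for B2m, -0.178 to 0.258 for Pecam1 and -0.332 to 0.134 for Spink5. The cause was not tested.

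Against 20 weeks the count was unstable. The fit of 12 libraries called 5 genes, 4 higher and 1 lower, and the replicate block 135, 94 higher and 41 lower. Leaving out 1 library gave 24 to 878 calls, 15 to 434 higher and 9 to 477 lower. The cause was not tested. Same-numbered libraries of these 2 groups did not deviate together (correlations -0.28, -0.26 and -0.02), and what a number marks is not known. FPKM holds no read counts, so that no sampling error can be given for low genes.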
